A study of Homo sapiens with 6 samples.

Results

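A group of 8 neighbouring genes on the long arm of chromosome 1, at band 1q32, was followed in HL-60 cells with and without a stable short hairpin RNA (shRNA) against EZH2. They are SLC45A3, NUCKS1, RAB29, SLC41A1, PM20D1, RAB7B, CTSE and RHEX, taken by symbol, and they make up 8 of the 58884 genes in the table. SLC45A3, RAB7B and RHEX were selected on their measured read counts, which were higher in the EZH2 shRNA libraries than in the controls, and the other 5 because they lie between or beside them. The difference between the groups in these 8 genes is therefore described here without a p-value, and nothing is read from whether it passed a threshold.

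HL-60 is an established RAS-mutated acute myeloid leukemia line whose cells resemble promyelocytes. The cells were transduced by lentivirus with either an EZH2 shRNA vector or a matching scrambled control vector, selected with puromycin and freed of the drug 2 days before the experiment, and all of them spent 24 hours in medium with 0.05% serum. The control shRNA group holds 3 libraries (numbered 3, 4 and 5) and the EZH2 shRNA group 3 libraries (1, 3 and 4), with total counts between 39717343 and 85074624 reads. The labels used here name neither the hairpin sequence nor whether the lines are clones or come from separate transductions. The p-values therefore reflect how much the libraries of a group varied, and this variation may be technical.

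The targeted gene EZH2, the methyltransferase of Polycomb repressive complex PRC2, was at 147.6, 150.5 and 150.3 CPM (counts scaled to a common library size) in control libraries 3, 4 and 5 and at 79.5, 83.2 and 77.3 CPM in EZH2 libraries 1, 3 and 4. The knockdown was thus partial in all 3 libraries (log2 fold change -0.90, SE 0.04, edgeR adjusted p = 3.22e-11). The promyelocyte markers MPO, ELANE, PRTN3, AZU1, CTSG, CD33, SPI1 and CEBPE summed to between 10160 and 10990 CPM in the controls and between 10310 and 10740 CPM in the EZH2 shRNA libraries. Nearly all of this sum is MPO, at a mean of 9795 CPM in the controls and 9416 CPM with EZH2 shRNA, which did not pass. Of the 7 markers tested, PRTN3 (from 21.8 to 96.5 CPM), AZU1 (from 37.8 to 60.8 CPM) and CEBPE (from 340.0 to 442.2 CPM) rose and CTSG fell (from 174.5 to 149.5 CPM), while ELANE was too low to be tested, with 0 to 3 reads in the control libraries. Across the series 7866 of 16859 genes tested passed the threshold of an adjusted p under 0.05 (46.7%), with 4010 higher (23.8%) and 3856 lower (22.9%).

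The neighbourhood mixes genes of unrelated function. RAB7B and RAB29 encode small GTPases of the RAB family, switches that cycle between a GTP-bound and a GDP-bound form and steer membrane vesicles: RAB7B acts between late endosomes and the Golgi and lowers Toll-like receptor signalling, and RAB29 recruits the kinase LRRK2 to Golgi and lysosomal membranes. RHEX is a membrane adaptor that links the erythropoietin receptor to intracellular signalling in erythroid precursors. SLC45A3, also called prostein, is a membrane transporter known from prostate epithelium, where its promoter is a fusion partner of ETS genes in cancer. NUCKS1 is an abundant nuclear DNA-binding phosphoprotein, SLC41A1 a magnesium transporter of the plasma membrane, PM20D1 a secreted enzyme that makes N-acyl amino acids, and CTSE the aspartic protease cathepsin E. PRC2 places the repressive mark H3K27me3, in mammals mostly at promoters rich in CpG dinucleotides, and so the CpG content of the start regions is given first.

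The genes span 445 kb. In chromosome order on GRCh38 they are SLC45A3 (ENSG00000158715, chr1:205657851-205680509), NUCKS1 (ENSG00000069275, chr1:205712822-205750182), RAB29 (ENSG00000117280, chr1:205767986-205775482), SLC41A1 (ENSG00000133065, chr1:205789094-205813748), PM20D1 (ENSG00000162877, chr1:205828025-205850132), RAB7B (ENSG00000276600, chr1:205976740-206003461), CTSE (ENSG00000196188, chr1:206009264-206023895) and RHEX (ENSG00000263961, chr1:206053173-206102449). RHEX lies on the plus strand and the other 7 on the minus strand. The widest gap, 126.6 kb, separates PM20D1 from RAB7B, while RAB7B and CTSE are 5.8 kb apart. Of the 8 genes, 4 lie between SLC45A3 and RAB7B and 1 between RAB7B and RHEX. The protein-coding gene SLC26A9, an anion transporter gene with 1 read in all 6 libraries together, lies in the gap between PM20D1 and RAB7B and is not among the 8.

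Promoter windows of all 8 genes were found in the RefSeq table (build GRCh38.p14). Each covers 300 bases around a start site, the last 50 of them downstream. The windows of the 3 higher genes and of NUCKS1, a neighbour with a small difference between the groups, are shown 5′ to 3′ on the gene's strand. Every CpG is in capitals, to show that the SLC45A3 window is richer in CpGs than those of RAB7B and RHEX.
SLC45A3 (chr1:205680460-205680759, minus strand): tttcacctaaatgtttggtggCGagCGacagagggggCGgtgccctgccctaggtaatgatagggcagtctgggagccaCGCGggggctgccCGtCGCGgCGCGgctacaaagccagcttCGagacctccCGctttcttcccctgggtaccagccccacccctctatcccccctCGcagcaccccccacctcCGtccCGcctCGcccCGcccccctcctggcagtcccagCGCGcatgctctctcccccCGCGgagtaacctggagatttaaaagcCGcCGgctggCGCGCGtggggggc
RAB7B (chr1:206003346-206003645, minus strand): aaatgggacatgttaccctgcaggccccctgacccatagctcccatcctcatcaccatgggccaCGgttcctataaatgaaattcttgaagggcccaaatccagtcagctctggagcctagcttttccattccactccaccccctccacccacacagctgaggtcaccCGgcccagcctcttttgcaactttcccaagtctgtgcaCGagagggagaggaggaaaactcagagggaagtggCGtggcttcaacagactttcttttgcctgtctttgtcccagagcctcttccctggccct
RHEX (chr1:206083345-206083644, plus strand): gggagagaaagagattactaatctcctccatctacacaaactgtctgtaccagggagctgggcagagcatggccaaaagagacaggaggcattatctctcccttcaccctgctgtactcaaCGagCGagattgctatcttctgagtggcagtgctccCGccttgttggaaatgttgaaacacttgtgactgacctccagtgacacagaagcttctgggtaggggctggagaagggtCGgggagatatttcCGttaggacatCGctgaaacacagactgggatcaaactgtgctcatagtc
NUCKS1 (chr1:205750133-205750432, minus strand): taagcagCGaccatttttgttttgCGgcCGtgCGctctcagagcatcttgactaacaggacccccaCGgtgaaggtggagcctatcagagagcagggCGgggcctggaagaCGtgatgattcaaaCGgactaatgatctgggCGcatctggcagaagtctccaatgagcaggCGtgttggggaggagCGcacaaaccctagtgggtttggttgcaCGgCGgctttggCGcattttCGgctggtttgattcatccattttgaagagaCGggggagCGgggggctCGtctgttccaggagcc
The SLC45A3 window holds 26 CpGs, the RAB7B window 4, the RHEX window 6 and the NUCKS1 window 18, against a median of 14 over 35114 RefSeq promoters of 300 bases. Of all these promoters, 71.8% have at most as many CpGs as SLC45A3, 29.6% at most as many as RAB7B and 36.8% at most as many as RHEX. The ratio of observed to expected CpGs was 0.75 for SLC45A3, 0.19 for RAB7B and 0.31 for RHEX, with a median of 0.58 over all promoters. The windows scored for the 3 higher genes are therefore neither all CpG-rich nor all CpG-poor. Which start the HL-60 cells use was not tested.

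RAB7B has another RefSeq start 9004 bases inside the deposited gene, whose window also holds 4 CpGs. The RefSeq start of RHEX lies 30422 bases inside the deposited gene, so a longer form is annotated upstream. Among the neighbours, the SLC41A1 window holds 27 CpGs, those of RAB29 and PM20D1 12 each, and that of CTSE 7. On either strand, the motif AGATAA, recognised by GATA factors, occurs in the RHEX window and in no other window of the 8 genes, and 10.3% of all promoters hold it. The motif GAGGAA, a core of PU.1 sites, occurs in the windows of RAB7B (the one shown), RAB29 and CTSE and in 27.9% of all promoters. The motif TATAAA is found in the RAB7B window shown and in 11.5% of all promoters, and CACGTG in the RAB29 window and in 7.26%. Such matches describe the letters of the window and not a bound site.

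In level per transcript length, RHEX stood above NUCKS1 and SLC45A3 above RAB29 in the EZH2 shRNA libraries, the reverse of the order in the controls, while RAB7B was the third in both. These levels are the FPKM values that the authors deposited, which are scaled to transcript length and library size. In the control libraries NUCKS1 was highest with 54.0 ± 0.39 FPKM (SD, n = 3), followed by RHEX with 29.5 ± 0.90, RAB7B with 11.3 ± 0.51, RAB29 with 6.62 ± 0.17, SLC45A3 with 2.43 ± 0.28 and CTSE with 0.44 ± 0.07 FPKM. In the EZH2 shRNA libraries RHEX was highest with 117.2 ± 3.88 FPKM, then NUCKS1 with 49.7 ± 1.08, RAB7B with 47.4 ± 0.14, SLC45A3 with 15.6 ± 0.38, RAB29 with 8.77 ± 0.26 and CTSE with 0.51 ± 0.07 FPKM. No neighbours in either order overlapped in their library values. The closest were NUCKS1, lowest at 48.9 FPKM, and RAB7B, highest at 47.5 FPKM, in the EZH2 shRNA group. SLC41A1 and PM20D1 are listed at 0 in every library.

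**Figure D1:**
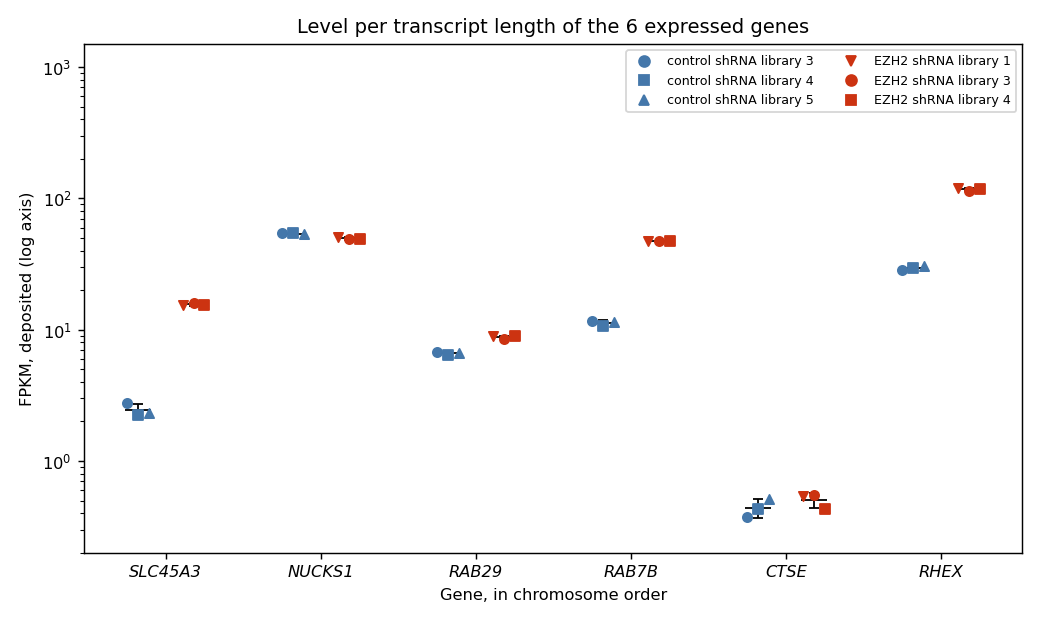
Deposited FPKM (log axis) of the 6 expressed genes in chromosome order, 1 point per library, with the group mean (dash) and SD (bars, n = 3), control shRNA in blue and EZH2 shRNA in red. SLC45A3, RAB7B and RHEX lie higher in every EZH2 shRNA library, NUCKS1 slightly lower, and the CTSE values of the groups overlap.

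Of the 8 genes, 6 passed the filter on low counts. Of these 6, 4 were past the threshold and higher and 1 was past it and lower, where 46.7% of all genes tested were past it in either direction. The values of the groups did not overlap for 5 of the 6, against 54.9% of all genes tested. Both counts follow from how the genes were chosen, and nothing is read from them. In bulk RNA, more RNA per cell and more cells with the gene cannot be told apart.

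RAB7B, the late endosomal GTPase, had 1701, 2068 and 1811 reads in control libraries 3, 4 and 5 and 8755, 9394 and 14992 reads in EZH2 libraries 1, 3 and 4. Scaled to library size these were 43.0, 39.7 and 42.7 CPM against 175.9, 175.3 and 176.6 CPM. The EZH2 shRNA libraries were close to one another (coefficient of variation 0.355%), and every one was far above the highest control. That variation is below the counting error expected at these read numbers, so nothing is read from it. The ratio of the means was 4.21 and the log2 fold change 2.07 (SE 0.04). RAB7A, the widely expressed relative on chromosome 3, was at 187.3 ± 7.49 CPM in the controls and, with EZH2 shRNA, at 195.7 ± 2.85 CPM (SD, n = 3 each), a log2 difference of 0.06 that did not pass (edgeR adjusted p = 0.216). Per transcript length RAB7B was below RAB7A in both groups, at 11.3 against 68.8 FPKM in the controls and 47.4 against 71.5 FPKM with EZH2 shRNA.

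RAB29, the other GTPase of the neighbourhood, was at 26.5, 25.3 and 25.8 CPM in the controls and at 35.1, 33.2 and 35.2 CPM in the EZH2 shRNA libraries. All 3 EZH2 shRNA values were above the highest control. The ratio of means was 1.33 and the log2 fold change 0.42 (SE 0.05), so RAB29 was higher by much less than RAB7B.

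RHEX, the erythropoietin receptor adaptor, had 1948, 2655 and 2232 reads in the control libraries and 10467, 10497 and 17274 reads in the EZH2 shRNA libraries. In CPM it stood at 49.3, 50.9 and 52.6 against 210.2, 195.9 and 203.4. The groups were far apart, with a ratio of means of 3.99 and a log2 fold change of 2.00 (SE 0.04). In its absolute gain, 152.2 CPM, RHEX was ahead of RAB7B with 134.1 CPM and SLC45A3 with 49.8 CPM. RHEX overlaps an annotated pseudogene, BX571818.1, on the same strand over 9085 bases, but that gene had 110 reads over all 6 libraries against 45073 for RHEX.

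SLC45A3, the transporter, was at 10.3, 8.40 and 8.70 CPM in the controls and at 58.7, 60.4 and 57.8 CPM in the EZH2 shRNA libraries. It had the largest ratio of the 8 genes, 6.46, with a log2 fold change of 2.70 (SE 0.07). Its control values also varied most among the 3 higher genes, with a coefficient of variation of 11.2% against 4.43% for RAB7B and 3.24% for RHEX. When FPKM + 1 was put on the log2 scale, where the added 1 weighs more in a gene of low level, the SLC45A3 difference was 2.28.

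NUCKS1, the nuclear phosphoprotein beside SLC45A3, was at 350.0, 350.7 and 346.9 CPM in the controls and at 331.7, 316.7 and 321.0 CPM in the EZH2 shRNA libraries. It was the one gene of the 6 with a lower level, by a ratio of 0.93 and a log2 fold change of -0.11 (SE 0.04). The groups did not overlap, but the difference was small beside those of its neighbours.

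CTSE, the protease gene between RAB7B and RHEX, had between 39 and 60 reads in the control libraries and between 72 and 98 in the EZH2 shRNA libraries. In CPM it was at 0.99, 1.15 and 1.37 against 1.45, 1.47 and 1.15, and the groups overlapped. The log2 fold change was 0.20 with an SE of 0.21. CTSE thus showed no difference detectable at this depth, although RAB7B and RHEX on either side of it were 4.21 and 3.99 times as high in the EZH2 shRNA libraries.

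SLC41A1 and PM20D1 had 0 reads in all 6 libraries, which allows up to 3 reads per library, or between 0.0353 and 0.0759 CPM (counting error only). Reads at 0 in every library were also found for 5096 of 19997 protein-coding genes (25.5%). The transcripts of SLC41A1 in GENCODE v44 share no stretch of 50 bases, the read length, with transcripts of another gene, nor do those of SLC45A3, NUCKS1, RAB7B and CTSE. For PM20D1 1.5% of such stretches are shared, for RAB29 1.18% and for RHEX 2.79%.

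Along the chromosome the 3 genes with large differences are not adjacent. SLC45A3 (log2 fold change 2.70) is followed by NUCKS1 (-0.11), RAB29 (0.42), the unread genes SLC41A1 and PM20D1, RAB7B (2.07), CTSE (0.20) and RHEX (2.00).

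**Figure D2:**
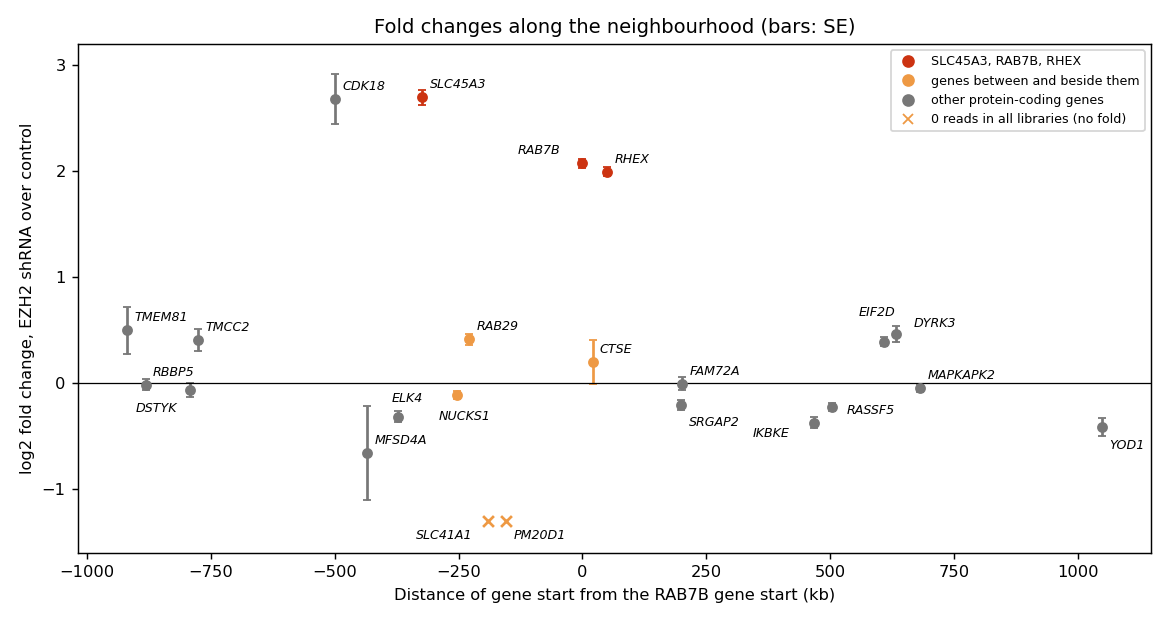
Log2 fold change (EZH2 shRNA over control, bars show the SE) of tested protein-coding genes against the distance of their start from the RAB7B start, in kb. SLC45A3, RAB7B and RHEX (red) stand between 2.00 and 2.70, where CDK18 also lies, while the genes between and beside them (orange) and the other genes (grey) lie between -0.66 and 0.50; crosses mark the positions of SLC41A1 and PM20D1, which have no fold change.

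Genes farther out were taken by position alone, in a window reaching about 1 Mb beyond the 8 genes on each side. Of the 76 other genes there, 22 were tested, of which 4 rose, 5 fell and 13 did not pass (40.9% past the threshold, against 46.7% of all genes tested), with a median log2 fold change of 0.06 against 0.01 for all genes tested and 0.04 for chromosome 1. All 9 changed genes are protein-coding, and they make up 60% of the 15 protein-coding genes tested there (median -0.04). The share over all protein-coding genes was not counted, so nothing is read from the 60%. CDK18, a cyclin-dependent kinase gene on the SLC45A3 side, rose from 0.53, 0.29 and 0.31 CPM in the controls to 2.21, 2.63 and 2.30 CPM in the EZH2 shRNA libraries (log2 fold change 2.68, SE 0.24, edgeR adjusted p = 9.75e-08). The other rises were smaller: 0.46 for DYRK3, a protein kinase gene, 0.40 for TMCC2 and 0.39 for EIF2D, a translation factor gene. YOD1, a deubiquitinase gene, fell by 0.41, IKBKE, a kinase gene of innate immune signalling, by 0.37, ELK4, an ETS factor downstream of ERK, by 0.32, RASSF5 by 0.23 and SRGAP2 by 0.20 on the log2 scale. TMEM81 (0.50), RBBP5 (-0.01), DSTYK (-0.06), MFSD4A (-0.66), FAM72A (-0.00) and MAPKAPK2 (-0.04) did not pass. The call of SRGAP2 ended in the fit on unfiltered log2 of FPKM + 1 (adjusted p = 0.0586), and TMEM81 passed without EZH2 library 3 (edgeR adjusted p = 0.0345).

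The nearest measured genes on either side of the 8 were ELK4 and FAM72A. ELK4 was at 39.9, 40.7 and 40.1 CPM in the controls and at 30.5, 34.0 and 32.4 CPM in the EZH2 shRNA libraries, so the direct neighbour of SLC45A3 went the other way (edgeR adjusted p = 8.56e-05). FAM72A was at 38.8, 35.5 and 39.6 CPM against 40.8, 36.9 and 36.0 CPM, and the groups overlapped. AVPR1B, a vasopressin receptor gene directly beyond RHEX, was below the filter and is named after its values were seen. It had 2 reads in each control library and 13, 15 and 14 reads in EZH2 libraries 1, 3 and 4. FAM72A and SRGAP2 have near-identical copies on chromosome 1 that can take their reads. EIF2D overlaps RASSF5, ELK4 overlaps MFSD4A, and FAM72A overlaps SRGAP2 on the other strand, and no source used here says whether counting was stranded.

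The genes with the pattern most like that of each higher gene were taken from 12260 genes with a mean of at least 1 CPM, by the root mean square difference between log2 CPM values, each gene centred on its own mean over the 6 libraries. With 2 groups this measure mostly returns genes with the same fold change, on which the 3 genes were selected, so it is a description only. For RAB7B they were CR1, the complement receptor (0.0396), PRG2, an eosinophil granule protein (0.0542), and SYTL2 (0.0817), with log2 fold changes of 2.08, 2.10 and 2.07. For RHEX they were RAB3C (0.0566), GNG4 (0.0614) and CR1 (0.0663), and for SLC45A3 they were GNAZ (0.131), CCNA1 (0.131) and NRCAM (0.152). Between the higher genes themselves the difference was 0.0682 for RAB7B and RHEX, so RHEX was closer to RAB7B than SYTL2 was. It was 0.317 for SLC45A3 and RAB7B and 0.369 for SLC45A3 and RHEX. CR1 also lies on chromosome 1, with its start 1.49 Mb beyond that of RAB7B, at chr1:207496147-207641765. It was at 8.81, 8.56 and 9.45 CPM in the controls and at 36.7, 37.6 and 38.8 CPM in the EZH2 shRNA libraries. CR1 may share reads with its family copy CR1L beside it.

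Genes that work with the 8 were counted in lists, beside 23.8% of all genes tested that rose, 22.9% that fell and a median log2 fold change of 0.01. Of 30 late endosome and lysosome traffic genes, the setting of RAB7B, 9 rose, 10 fell and 11 did not pass, with a median log2 fold change of -0.01. VPS11, a tethering complex subunit, fell by 0.62 and RAB5A, the early endosome GTPase, by 0.59, whereas the tetraspanin gene CD63 rose by 0.53. Of 14 tested genes of Toll-like receptor traffic and signalling, which include adaptors, kinases and chaperones besides receptors, 2 rose and 7 fell (median -0.27). TLR4, the lipopolysaccharide receptor, was at 23.1, 22.2 and 23.7 CPM in the controls and 38.4, 36.3 and 36.5 CPM in the EZH2 shRNA libraries (log2 fold change 0.69, SE 0.05, edgeR adjusted p = 2.31e-08). UNC93B1, the chaperone of endosomal Toll-like receptors, fell by 0.47, IRAK4, a receptor-associated kinase, by 0.43 and CNPY3, a folding factor, by 0.34. TLR9 had 1 read in each group. 

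Of 20 genes of the LRRK2 and RAB29 pathway, 7 rose, 7 fell and 6 did not pass (median 0.01). The count depended on single libraries, with 4 higher and 5 lower without control library 4 and 3 higher and 6 lower without EZH2 library 4. TGOLN2, a trans-Golgi protein, fell by 0.91 and RAB10, an LRRK2 substrate, by 0.40, while the phosphatase gene PPM1H rose by 0.59 and DNAJC6 by 0.44. LRRK2 itself was weakly expressed, at 1.77, 1.40 and 1.18 CPM in the controls and 0.82, 0.90 and 0.59 CPM in the EZH2 shRNA libraries (log2 fold change -0.93, SE 0.24, edgeR adjusted p = 0.00374). On log2 of FPKM + 1 that call ended, with limma adjusted p = 0.0659 with the filter and 0.14 without it.

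Erythropoietin receptor signalling genes, the setting of RHEX, held 5 rises and 8 falls among 19 tested (median -0.09). STAT5A and STAT5B, the transcription factors at the end of this pathway, rose by 1.10 and 0.49, whereas the kinase gene PIM1 fell by 1.30 and the adaptor gene GAB2 by 0.98. EPOR, the receptor, was at 8.54 ± 0.05 CPM in the controls and, with EZH2 shRNA, at 6.53 ± 0.11 CPM (SD, n = 3 each; log2 fold change -0.39, edgeR adjusted p = 0.00123). Thus the receptor was lower in the libraries in which its adaptor RHEX was higher. Of 26 erythroid genes 8 were tested, of which 5 rose and 2 fell (median 0.67). NFE2, a transcription factor shared with megakaryocytes, rose by 1.41 and ANK1, an ankyrin, by 2.07, while GYPC, a glycophorin, fell by 0.51 and LMO2 by 0.32.

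Magnesium transporter genes other than SLC41A1 fell in 7 of 14 cases and rose in 3 (median -0.20). MRS2, the mitochondrial channel, fell by 0.58, MMGT1 by 0.53 and NIPAL3 by 0.29, and NIPA1 rose by 1.02. Of 13 tested cathepsin and aspartic protease genes 3 rose and 5 fell (median -0.16). CTSF rose by 2.32 and CTSB by 0.74, and CTSC and CTSS fell by 0.40 and 0.38. The list related to PM20D1, M20 peptidases and N-acyl amino acid enzymes, had 2 rises and 2 falls among 5 (median 0.13): FAAH rose by 0.68 and CNDP2 by 0.13, NAAA fell by 0.48 and PM20D2 by 0.35. The CNDP2 call ended without control library 4 (edgeR adjusted p = 0.0553). SLC45A4 was the one tested relative of SLC45A3 and did not pass (0.00).

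**Figure D3:**
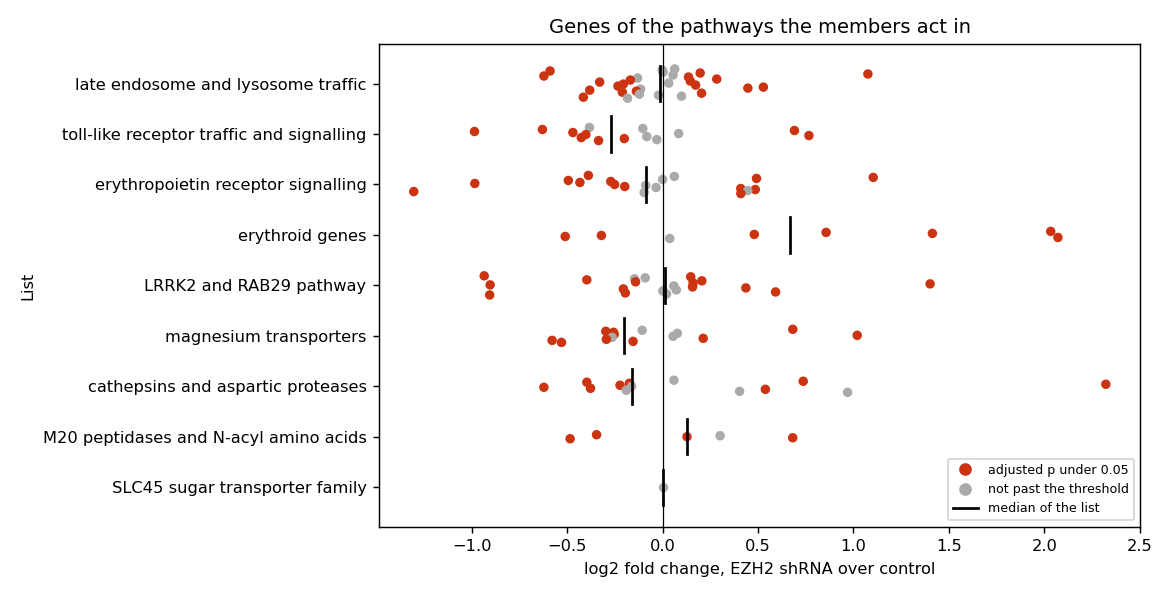
Log2 fold change (EZH2 shRNA over control) of each tested gene of the 9 lists, 1 row per list, with points past the adjusted p threshold of 0.05 in red and the list median as a black line; points are spread vertically for legibility. Most medians lie within 0.3 of 0, and that of the erythroid genes, at 0.67, rests on 8 tested genes.

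Some markers of other blood lineages differed between the groups, and most of the sums rest on 1 gene. The 9 eosinophil, basophil and mast cell markers, none of them at 0 in all 6 libraries, summed to between 7.16 and 8.06 CPM in the controls and between 145.4 and 161.3 CPM in the EZH2 shRNA libraries. Of these, 7 of 8 tested rose, where 23.8% of all genes tested did. CLC alone was at a mean of 1.08 CPM in the controls and 86.5 CPM with EZH2 shRNA. MS4A2 did not pass (edgeR adjusted p = 0.708), and TPSAB1 was too low to be tested. Erythroid markers summed to between 1.74 and 2.08 CPM against 3.19 and 3.78 CPM and were nearly all KLF1, while 6 of the 9, including HBB, HBG1, HBG2 and ALAS2, were at 0 in all libraries. Monocyte and macrophage markers summed to at most 0.45 CPM in the controls and 1.10 CPM in the EZH2 shRNA libraries, with S100A12 of the 7 at 0. CSF1R carried the rise, from 0.11 to 0.87 CPM, whereas VCAN was at 0.20 and 0.09 CPM and CD14 at 0.05 and 0.03 CPM, too low to be tested. The 5 B cell markers summed to between 16.6 and 18.7 CPM against 35.6 and 38.7 CPM, with CD79B and MS4A1 at 0, and the 5 T cell markers to between 18.3 and 18.4 CPM against 32.2 and 36.1 CPM, with CD3G at 0. PAX5 alone gave 17.3 and 36.8 CPM of the B cell sums and TRAC alone 18.2 and 34.0 CPM of the T cell sums. Their part in the levels of SLC45A3, RAB7B and RHEX was not tested.

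**Figure D4:**
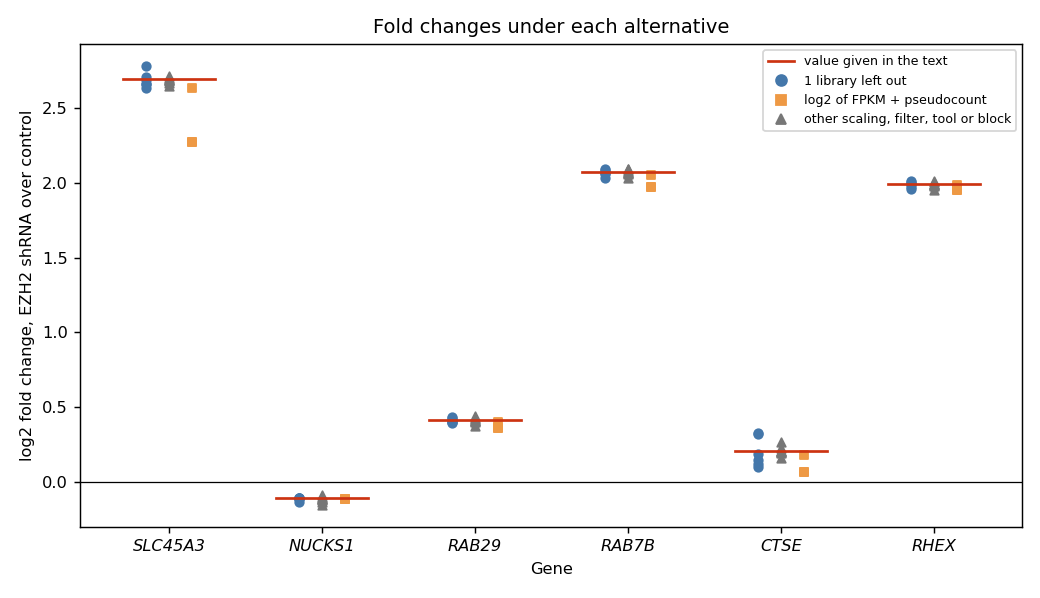
Log2 fold change of the 6 expressed genes as given in the text (red line) and under 17 alternatives each: libraries left out (blue), log2 of FPKM plus a pseudocount (orange), and other scalings, filters, tools, the block or the chromosome 1 median removed (grey). No gene changed direction, and SLC45A3 moved most, to 2.28 on log2 of FPKM + 1.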

How the data were processed

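Polyadenylated RNA of 6 HL-60 samples was sequenced as single reads of 50 bases, per the labels' protocols. The authors deposited raw counts per gene, without normalization, and FPKM values. DESeq2 1.24.0 under R 3.6.1, Picard 2.18.24, STAR 2.5.2b and the build GRCh38 (hg38) are listed, without role or order, per the submitters' processing notes. The sources used here give no counting program, annotation or strand setting. The deposited FPKM equal the counts divided by DESeq2 size factors and a whole-number gene length (within 0.001 for 29060 of 29060 genes with reads), so they are no independent measurement.

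The 6 libraries were grouped by their labels, and replicate pairs differed by more than sampling noise (chi-square per degree of freedom 3.02 to 15.9). Counts of 16859 genes that passed filterByExpr were tested with the quasi-likelihood test of edgeR 4.0.16 (R 4.3.3; TMM scaling, robust, group as the only term; Benjamini-Hochberg over all 16859). SEs come from the fold change and F. CPM are counts scaled by TMM library sizes. Alternatives were other scalings, filters, DESeq2 1.42.0, limma 3.58.1 on log2 FPKM, libraries left out, other windows and a replicate block. On simulated counts over 16604 genes, 98 of 100 changes of 1 and 78 of 100 changes of 0.5 on the log2 scale were called, with 18 false calls. Only 200 genes were changed in the simulation, where 46.7% of genes tested passed in the data. Its share of false calls therefore does not carry over to the data.

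The members and lists were chosen with earlier results of these data known. Named by rule were the members, every tested protein-coding gene of the window and EZH2. So were up to 4 called genes with the smallest p per list and the 3 non-member genes most like each higher member. Other genes were named outside this rule, after their values were seen. They were RAB7A, EPOR, LRRK2, TLR9, SLC45A4, SLC26A9, AVPR1B, markers that were not called, overlapping genes and the further genes under Other observations. A gene that the rule names is not reported here. Promoters are from RefSeq and transcripts from GENCODE v44.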

Additional observations from a re-analysis of the deposited data

How the results depend on the processing

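The 6 expressed genes kept their direction under all 17 alternatives run for each. Over these, the log2 fold change lay between 2.28 and 2.78 for SLC45A3, 1.97 and 2.10 for RAB7B, 1.95 and 2.02 for RHEX, 0.36 and 0.44 for RAB29, 0.07 and 0.32 for CTSE, and -0.16 and -0.09 for NUCKS1. The count of changed neighbours, 9 of 22, was between 8 and 11 under the other alternatives, and 18 of 40 with the window widened to 2 Mb beyond each side. With the wider window more tested genes were counted, and the directions went from 4 higher and 5 lower to 13 higher and 5 lower. The count over all genes, 7866, lay between 5906 (unfiltered log2 of FPKM + 1) and 8122 (no filter), and scaling moved the share of rises between 48.5% and 54.8%. Control and EZH2 libraries share the title numbers 3 and 4, which nothing says are paired. Deviations of same-numbered libraries correlated at 0.107 and 0.119, above all other pairs of a control and an EZH2 library, which lay between -0.141 and 0.0529. With the title number as replicate block 7721 genes and 9 neighbours were called. Of 69 single-gene calls followed, 65 kept their side of the threshold under every alternative that gave an adjusted p; the exceptions were TMEM81, SRGAP2, LRRK2 and CNDP2, as given above, and the cause was not tested. Depth limits CTSE, with at most 98 reads per library, and AVPR1B.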

Other observations

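The next 1 Mb on the telomere side of that window holds the complement regulator genes. The genes named here were chosen after their values were seen. Of 8 tested genes there 6 rose and 0 fell in the edgeR fit (median log2 fold change 1.51), where 23.8% of all genes tested rose and 22.9% fell. Since the region was picked with its values known, nothing is read from that count or from the one on the other side. CD55, which protects cells from complement, rose from 40.1 ± 2.06 to 76.9 ± 6.50 CPM (SD, n = 3 each; log2 fold change 0.94, SE 0.06, edgeR adjusted p = 5.83e-09). CR1 and its copy CR1L were higher by 2.08 and 2.22, the stem cell antigen gene CD34 by 2.90 from 0.08 CPM, PLXNA2, a semaphorin receptor gene, by 2.78 from 0.07 CPM and the microRNA host gene MIR29B2CHG by 0.77. CD46, the other widely expressed complement regulator there, was at 199.8 ± 8.50 CPM in the controls and 209.4 ± 5.59 CPM with EZH2 shRNA (SD, n = 3 each) and did not pass (edgeR adjusted p = 0.211). In the next 1 Mb on the centromere side, 3 of 10 tested genes rose and 0 fell. They were SOX13, a transcription factor gene, from 0.12 to 1.79 CPM (log2 fold change 3.88), PIK3C2B, a lipid kinase gene (0.59), and ATP2B4, a calcium pump gene (0.25). MDM4, a p53 regulator gene, was at 0.13 and did not pass (edgeR adjusted p = 0.112).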
